A study of Mus musculus with 12 samples.

Results

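Genes that span 700 kb or more were described in mouse liver. They were taken by length alone from a count table of 50499 genes, in which the length of a gene is its whole span from start to end, and 129 genes met the limit. The limit uses no measured level, but the set was chosen with earlier results of these data known. The study measured liver transcriptomes in mice fed to model steatohepatitis, with 3 libraries in each of 4 groups. Male C57Bl/6NCrl mice were put on their diets at 6 weeks of age, and after 12 weeks they received AAV8 particles by tail vein, followed by 12 more weeks. The Western siAATF group had Western diet with sugar water and AAV8-TBG-siAATF, which carries a silencing sequence against Aatf. The Western null group had the same diet and AAV8-TBG-Null, the chow siAATF group had chow with normal water and AAV8-TBG-siAATF, and the chow null group had chow with normal water and AAV8-TBG-Null. Every group therefore carries an AAV8 vector. TBG is a hepatocyte-directed promoter, so the vector is not meant to act in other liver cells. The labels do not say that each replicate is a separate mouse, so a p-value speaks of the spread among these libraries, which may be technical.

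In mammals a gene is transcribed over its whole span, introns included, and the introns are then spliced out and degraded in the nucleus. In very long genes introns make up nearly all of the span, and a polymerase needs far longer to cross them than to cross a short gene. Many of the longest mammalian genes encode adhesion molecules, channels and scaffolds of neurons, while a smaller number serve metabolism, mitochondria or transcription in liver. Some of them, such as Wwox and Fhit, lie over common fragile sites in the human genome.

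The libraries held 1646853 to 13469819 counts, of which an 18S ribosomal RNA gene took 0.871% to 50.8%. Aatf, the gene that the vector targets, stood at 27.0, 27.5 and 28.2 CPM (counts scaled by library size) in Western siAATF libraries, against 27.7, 21.1 and 30 CPM in Western null libraries. It stood at 39.2, 24.6 and 40.5 CPM in chow siAATF libraries, against 36.8, 26.5 and 31.6 CPM in chow null libraries. It was not lower where the label says siAATF, so each vector comparison below is between libraries as they are labelled. Summed hepatocyte markers (17 genes in the table, none at 0) reached 68040 to 136400 CPM in every library, as the liver label implies. Of 16 neuron and Schwann cell markers, Snap25, Elavl4 and Nefl were at 0 in all libraries and 3 could be tested. The sum of all 16 was 15.3 to 45.2 CPM. All genes that lie inside another listed gene are at 0 in every library. A 0 given here or below, for a marker or another gene, therefore does not by itself show absent RNA.

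The 129 genes spanned 702.7 to 3171.1 kb, with a median of 1003.6 kb. They lay on every autosome and on X, with 13 on chromosome 14, 11 on chromosome 1 and 10 each on chromosomes 6 and 8. In the GENCODE annotation of GRCm38, an earlier build than that of the counts, 124 of the 129 (96.1%) had an entry of the same name, and 122 of these were protein coding. Exons covered a median of 0.995% of the span of these 122 genes, with a range of 0.036% to 7.82%. The same share was 2.15% in protein-coding genes of 300 to 700 kb, 10.9% in those of 30 to 100 kb and 50.5% in those under 10 kb. A median member had 10334 exonic bases, against 2086 in genes under 10 kb, so the members differ from short genes mainly in intron and less in exon. The antigen receptor loci Igk, Igh and Tcra are listed in the table as single genes and are members by this rule.

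Counts were taken over the whole span, so unspliced RNA is counted with mature RNA. In sum the 129 genes held 289986 counts over 146.6 Mb, and the depth was very uneven. Dpyd, Zbtb20 and Immp2l held 47.4% of the counts, and the 10 most counted genes held 70.0%. The members Iqschfp, Gm37013, Gm38666 and Gm38667 were listed at 0 in every library, and 2 members lie inside another gene, where the table lists 0 throughout. Another 45 had 1 to 24 counts in all 12 libraries together, and 33 members had fewer than 10. Tests were made on the 67 members that passed a low-count filter (about 2.01 CPM in at least 3 libraries). Each of the 67 reached that limit in libraries of more than 1 group. That does not show that each would pass without its highest group. Nrg1, for example, reached the limit in 3 libraries only with its Western null libraries counted. The 62 members not tested had a median of 9 counts and a highest of 139, which was reached by Sgcd.

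The promoters of the 3 most counted members, and of Kcnma1, 1 of the members that was higher on the Western diet, are shown because the results on the diet are described on these genes. Each runs from 250 bases before to 50 bases after a transcript start in RefSeq (GRCm38.p6), written 5′ to 3′ on the strand of the gene, and capitals mark the dinucleotide CG. The windows lie at chr3:118561930-118562229 (plus strand) for Dpyd, chr16:43247034-43247333 (plus strand) for Zbtb20, chr12:41023840-41024139 (plus strand) for Immp2l and chr14:24004156-24004455 (minus strand) for Kcnma1.
Dpyd: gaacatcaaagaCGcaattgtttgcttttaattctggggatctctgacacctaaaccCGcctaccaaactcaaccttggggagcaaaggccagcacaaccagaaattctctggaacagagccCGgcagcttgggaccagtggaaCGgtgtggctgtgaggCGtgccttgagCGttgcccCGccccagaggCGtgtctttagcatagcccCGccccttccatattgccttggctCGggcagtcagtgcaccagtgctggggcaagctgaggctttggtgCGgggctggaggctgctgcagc
Zbtb20: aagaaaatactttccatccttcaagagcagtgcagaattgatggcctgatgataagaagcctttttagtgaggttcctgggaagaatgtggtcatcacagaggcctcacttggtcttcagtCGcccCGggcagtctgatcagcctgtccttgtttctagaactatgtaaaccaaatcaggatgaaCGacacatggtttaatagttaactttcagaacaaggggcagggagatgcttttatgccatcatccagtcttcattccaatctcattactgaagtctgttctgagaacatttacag
Immp2l: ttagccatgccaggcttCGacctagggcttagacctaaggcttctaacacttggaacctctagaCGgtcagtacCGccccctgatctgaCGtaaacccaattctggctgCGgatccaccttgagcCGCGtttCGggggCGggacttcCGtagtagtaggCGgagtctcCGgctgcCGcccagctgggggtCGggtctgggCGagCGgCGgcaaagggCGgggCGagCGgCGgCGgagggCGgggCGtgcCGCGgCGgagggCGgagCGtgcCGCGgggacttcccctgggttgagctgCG
Kcnma1: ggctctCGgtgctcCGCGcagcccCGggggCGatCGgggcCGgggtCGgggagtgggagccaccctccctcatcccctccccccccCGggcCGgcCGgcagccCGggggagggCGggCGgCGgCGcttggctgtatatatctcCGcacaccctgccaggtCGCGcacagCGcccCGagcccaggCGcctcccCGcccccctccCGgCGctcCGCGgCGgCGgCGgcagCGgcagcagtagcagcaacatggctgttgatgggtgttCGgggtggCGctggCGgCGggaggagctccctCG
The Kcnma1 window held 36 CG and the Immp2l window 32, while the Dpyd window held 11 and the Zbtb20 window 3. All promoters of the RefSeq table had a median of 7 CG. The motif TATAAA, searched on both strands, was in none of the 4 windows and in 13.6% of those promoters. They covered 97 of the 129 genes (75.2%), which is too few for a statement on the whole set.

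Dpyd, which encodes dihydropyrimidine dehydrogenase, the enzyme that starts pyrimidine breakdown, was the densest member with 79543 counts per Mb of span over the 12 libraries. Zbtb20, a zinc-finger repressor that silences fetal genes in the adult liver, followed with 59041, and Immp2l, a subunit of the mitochondrial inner membrane peptidase, with 26603. After a gap came members such as Wwox, an oxidoreductase with WW domains, at 8874 counts per Mb. At the other end stood members that are known as neuronal genes. Cntnap2, an adhesion molecule of myelinated axons with a span of 2241.3 kb, had 0, 0 and 2 counts in Western null libraries, and 0 to 3 in each of the others. As a floor for genes that liver is not known to express, 2088 chemosensory receptor genes were used, of which 1982 were at 0. Without the 2 most counted of them, a choice made after seeing the data, the receptor genes held 651 counts, and 58 members had a lower density than these.

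**Figure D1:**
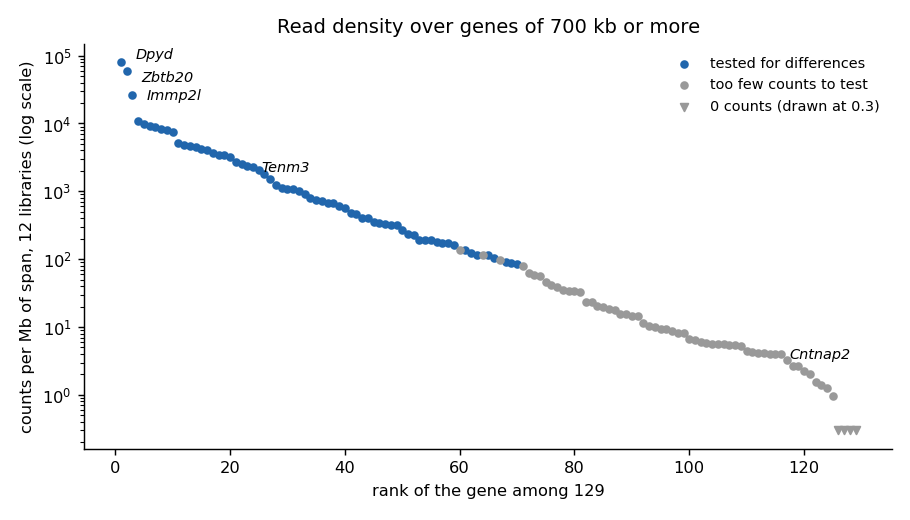
Counts per Mb of span summed over 12 libraries (log axis), for the 129 genes in order of density (horizontal axis, rank). Blue points are the 67 tested genes, grey points those with too few counts, and triangles the 4 genes at 0, drawn at 0.3; Dpyd, Zbtb20 and Immp2l stand above the rest, and Cntnap2 lies near the lower end.

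The share of all counts that fell on the 129 genes, with the 18S gene left out, was smaller in Western null than in chow null livers. It was 0.277%, 0.325% and 0.351% in Western null libraries, against 0.625%, 0.386% and 0.746% in chow null libraries. These groups did not overlap, and the group means of the log2 share differed by -0.84. Western siAATF libraries stood at 0.348%, 0.563% and 0.334%, close to Western null in replicates 1 and 3 and above it in replicate 2. Chow siAATF libraries stood at 0.585%, 0.423% and 0.391%, within the range of chow null. The same difference of mean log2 shares was 0.35 for Western siAATF against Western null and -0.30 for chow siAATF against chow null. Exact 95% binomial intervals of these shares were narrow, for example 0.269% to 0.286% in the library with fewest counts, and cover counting error only. Members chosen together get no p-value for their sum.

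Western null livers were set against chow null livers to ask what the diet does without the silencing vector. Of the 67 tested long genes, 3 rose and 19 fell (edgeR's quasi-likelihood test, adjusted p under 0.05 by Benjamini-Hochberg over all 11934 genes tested). That is 32.8% of the members, against 13.2% of all genes tested, and 28.4% against 6.77% for lower genes alone and 4.48% against 6.44% for higher ones. The median log2 fold change was -0.70 over the members and -0.03 over all genes. In 24 members all 3 Western null libraries lay below all 3 chow null libraries (background 17%), and in 10 they lay above (background 17.7%). The share of lower genes went with length: it was 3.08% in genes under 10 kb, 8.03% in those of 30 to 100 kb, 14.6% in those of 100 to 300 kb and 27.7% in those of 300 to 700 kb, beside the members' 28.4%. The medians went the same way, with 0.28 under 10 kb, -0.18 at 30 to 100 kb, -0.36 at 100 to 300 kb and -0.50 at 300 to 700 kb. These medians are descriptions, and the members were not tested against the class next to them.

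The split of calls depends on how libraries are scaled. When the scaling factors were taken from genes of 100 to under 700 kb, which moves the median of all genes to 0.34, the members split into 3 higher and 9 lower, with a median of -0.30. These calls were 17.9% of the members, close to the 16.5% of all genes tested. With an offset that takes out any trend with span within each library, 7 members were higher and 4 lower, with a median of -0.03. The calls were then 16.4% of the members, against 11% of all genes tested. Measured beside this difference, the nuclear RNA Malat1 fell by 1.07 ± 0.28 on the log2 scale (edgeR adjusted p = 0.0192) and the nuclear RNA Neat1 by 2.95 ± 0.62 (adjusted p = 0.00878). Both are short genes and were picked out after their values were seen. Summed hepatocyte markers were 68040 to 75540 CPM in Western null libraries, against 92180 to 136400 CPM in chow null libraries, with 5 of 17 lower. The stellate cell sum was 1366 to 1864 CPM in Western null libraries, against 309 to 586 CPM in chow null libraries, with 7 of 14 tested markers higher, and Lrat at 0. The sum for lipid-associated macrophages was 1587 to 1620 CPM in Western null libraries, against 571 to 702 CPM in chow null libraries, with 10 of 12 higher. The neuron and Schwann cell sum was 15.3 to 21.2 CPM in Western null libraries, against 23.1 to 45.2 CPM in chow null libraries, without overlap, and 1 of its 3 tested markers was lower. The part of nuclear RNA or of cell types in the lower long genes was not tested. In whole liver, fewer cells of a type and less RNA per cell cannot be told apart.

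**Figure D2:**
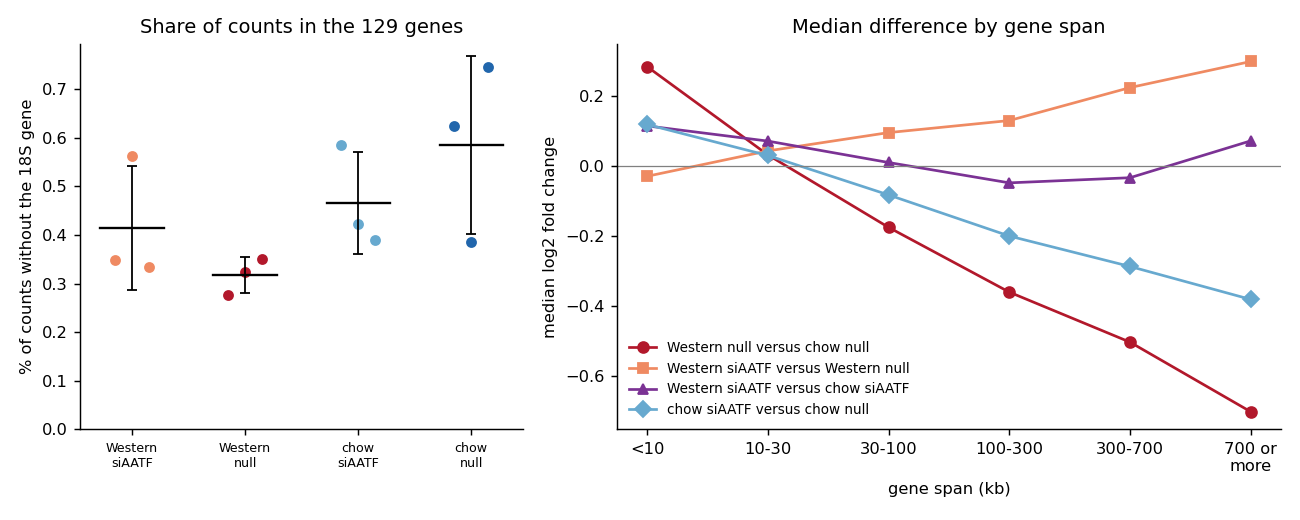
Left, the share of counts on the 129 genes in each library (points), with the group mean (line) and SD (error bar, 3 libraries each); Western null livers lie at 0.277% to 0.351% and chow null livers at 0.386% to 0.746%. Right, the median log2 fold change of tested genes (vertical axis) by span class (horizontal axis) in 4 comparisons; for Western null against chow null it runs from 0.28 under 10 kb to -0.70 at 700 kb or more.

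Of 27 members that encode enzymes and signalling proteins 18 were tested, and 10 fell in Western null livers, with a list median of -1.21. The counts of this and the next lists stand beside 6.77% of all tested genes called lower and 6.44% called higher, a gene may stand on more than 1 list, and no list was tested against another. Dpyd (GRCm39 chromosome 3, 118355758 to 119226573, plus strand, with no other listed gene inside it) stood at 396, 527 and 488 CPM in Western null libraries, against 1200, 886.5 and 1445 CPM in chow null libraries. All 3 Western null libraries were below all 3 chow null libraries. Its log2 fold change was -1.32 ± 0.32 (edgeR adjusted p = 0.0125), a level 2.50-fold lower. Immp2l had 105, 176 and 208 CPM in Western null libraries, against 456, 291 and 612 CPM in chow null libraries, again without overlap, and fell by 1.47 ± 0.35 on the log2 scale (adjusted p = 0.0125).

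Wwox (chromosome 8, 115166377 to 116079451, plus strand) and Fhit, members known from human fragile sites, both fell. Wwox had 31.1, 37.5 and 39.5 CPM in Western null libraries, against 124, 113.5 and 276 CPM in chow null libraries. The groups stood well apart, and the level was 4.74-fold lower (log2 -2.25 ± 0.33, edgeR adjusted p = 0.000417). Fhit, a diadenosine triphosphate hydrolase with a span of 1612.0 kb, had 37.5, 29.6 and 44.3 CPM in Western null libraries, against 75.9, 54.2 and 108 CPM in chow null libraries (log2 -1.10 ± 0.31, adjusted p = 0.0296). In both genes every Western null library was below every chow null library.

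Other lower members of the enzyme list were Ptprt, a receptor tyrosine phosphatase, at -2.62, Nckap5 at -1.81, the formin Diaph2 at -1.39, the polarity protein gene Pard3b at -1.34 and Sugct, a mitochondrial coenzyme A transferase, at -1.33 on the log2 scale. Ptprt rests on few reads, with 1, 1 and 6 counts in Western null libraries, against 29, 1 and 49 in chow null libraries. Enzyme members that did not pass had values such as -0.95 for Prkg1, a kinase activated by cyclic GMP (adjusted p = 0.0828), -0.70 for the phosphodiesterase gene Pde4d (0.315), -0.45 for Macrod2 (0.449) and 0.15 for the lipid phosphatase gene Inpp4b (0.86). Naaladl2 stood at -0.98 (adjusted p = 0.09), and Malrd1, a regulator of bile acid signalling in mouse intestine, had 3 counts in all.

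All 8 members on the list of transcription and RNA regulators were tested, and 4 of them fell (list median -0.59). Zbtb20 (chromosome 16, 42728008 to 43462442, plus strand) had 221, 291 and 378 CPM in Western null libraries, against 907, 461 and 738 CPM in chow null libraries, with no overlap (log2 -1.24 ± 0.33, edgeR adjusted p = 0.0212). Rora, a nuclear receptor of the circadian clock and lipid metabolism, had 67.6, 60.3 and 71.6 CPM in Western null libraries, against 144, 76.8 and 154 CPM in chow null libraries (log2 -0.92 ± 0.29, adjusted p = 0.0459). Celf2, a splicing regulator, stood at -0.84 ± 0.25. Sox5, an HMG-box factor, passed at -1.06 ± 0.30 although its groups overlapped, with chow null replicate 2 at 87.0 CPM just under the highest Western null library at 87.7 CPM. The other 4 were Npas3 at 0.13, Auts2 at -0.09, Rbms3 at -0.35 and Rbfox1 at 0.78, with adjusted p between 0.496 and 0.913.

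The list of channels, receptors and synaptic signalling held all 3 higher calls and the largest lower one, with 9 of 20 genes tested and a median of -0.41. Nrg1 (chromosome 8, 32299493 to 33381858, minus strand) encodes neuregulin, a growth factor ligand of ErbB receptors. It had 25.2, 18.4 and 15.7 CPM in Western null libraries, against 1.71, 0 and 1.92 CPM in chow null libraries. Each Western null library was far above each chow null library, and the log2 fold change was 3.65 ± 0.47 (edgeR adjusted p = 0.000155). Nrg1 passed the low-count filter only with its Western null libraries counted. Kcnma1, the pore-forming subunit of a calcium-activated potassium channel, had 14.8, 8.52 and 6.92 CPM in Western null libraries, against 0.80, 0 and 1.04 CPM in chow null libraries (log2 3.58 ± 0.70, adjusted p = 0.00356). The Kcnma1 call was lost without the libraries in which 18S took over 25%, a setting that leaves chow null replicate 3 alone in its group. Kcnip4, which binds another class of potassium channels, had 8.39, 4.77 and 6.92 CPM in Western null libraries, against 1.83, 2.26 and 2.35 CPM in chow null libraries (log2 1.63 ± 0.50, adjusted p = 0.0384). The Kcnip4 call was lost in 9 of 23 alternatives, among them leaving out any 1 Western null library.

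Dlgap1 (chromosome 17, 70276068 to 71128408, plus strand), a scaffold gene known from the postsynaptic density, moved the other way. It had 1.98, 1.70 and 2.60 CPM in Western null libraries, against 20, 18.6 and 35.1 CPM in chow null libraries. The level was 11.1-fold lower (log2 -3.47 ± 0.50, edgeR adjusted p = 0.000389), the largest lower change among the tested members. Few reads stand behind Western null replicates 1 and 2, where a floor of 3 counts is 1.48 and 1.02 CPM. Erbb4, a receptor for neuregulin, stood at 40.5, 41.6 and 53.1 CPM in Western null libraries, against 79.1, 33.3 and 108 CPM in chow null libraries, and these groups overlapped (log2 -0.72 ± 0.58, adjusted p = 0.451).

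Members with roles in adhesion and the cytoskeleton had 4 calls, all lower. Of 47 genes on the adhesion list 20 were tested, and Ptprt and Nkain2 fell (median -0.25). Tenm3, a teneurin with the third longest span (2691.6 kb), had 95.8, 74.3 and 98.8 CPM in Western null libraries, against 81.7, 93.2 and 95.8 CPM in chow null libraries, and the groups overlapped (log2 -0.01 ± 0.33, edgeR adjusted p = 0.991). Ptprd, a receptor phosphatase of 2272.8 kb, stood at -0.68 ± 0.29 (adjusted p = 0.135), and Il1rapl1 at 3.31 ± 1.21 (0.103), with 11.8, 24.2 and 9.07 CPM in Western null libraries, against 1.49, 3.39 and 0.87 CPM in chow null libraries. Of 16 cytoskeletal genes 8 were tested, and Pard3b and Diaph2, which stand on the enzyme list too, were the 2 lower calls (median -0.22). Exoc4, an exocyst subunit used by most cells, had 67.6, 77.0 and 90.4 CPM in Western null libraries, against 91.2, 57.0 and 90.5 CPM in chow null libraries (log2 -0.03 ± 0.26, adjusted p = 0.959). Dystrophin (Dmd, 2390.4 kb) stood at 0.02 ± 0.28 (adjusted p = 0.974).

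**Figure D3:**
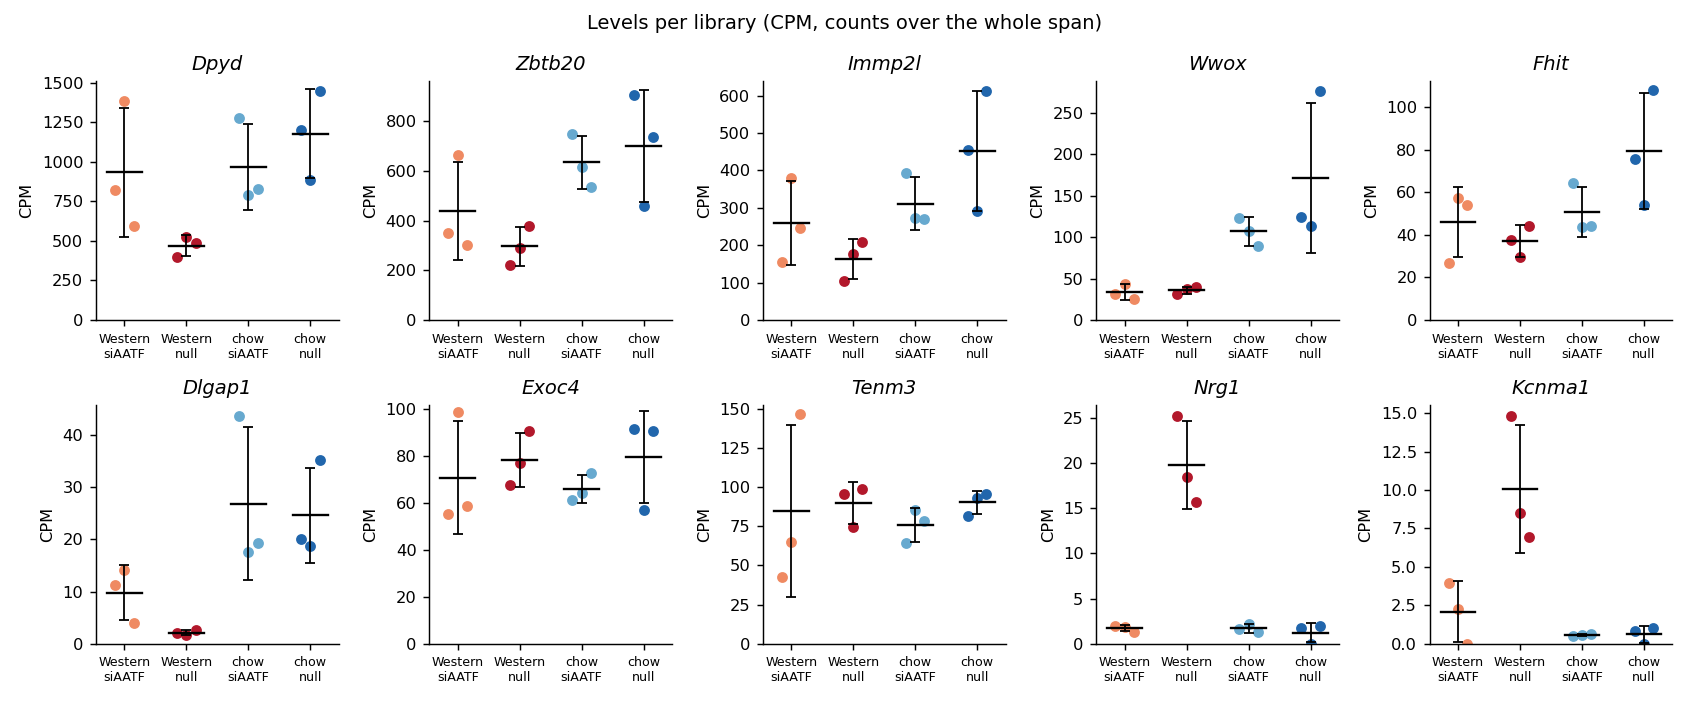
CPM per library of 10 members (points) with the group mean (line) and SD (error bar, 3 libraries each), groups from left to right Western siAATF, Western null, chow siAATF and chow null. Dpyd, Zbtb20, Immp2l, Wwox, Fhit and Dlgap1 are low in all 3 Western null libraries, Exoc4 and Tenm3 overlap between Western null and chow null, and Nrg1 and Kcnma1 are high in Western null libraries.

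On no role list stood 21 members, of which 10 were tested and 3 fell. Erc2, a scaffold of the presynaptic active zone, had 25.2, 14.7 and 28.5 CPM in Western null libraries, against 64.4, 50.8 and 78.1 CPM in chow null libraries (log2 -1.50 ± 0.30, edgeR adjusted p = 0.00455). Camta1, a calmodulin-binding transcription activator, stood at -1.38 ± 0.42 and Arhgap26 at -0.92 ± 0.28 (adjusted p = 0.0379 and 0.0378). Of 31 members listed for a role in liver or metabolism, 27 were tested, and 2 rose (Nrg1 and Kcnip4) and 11 fell (list median -0.92). Those not tested were Malrd1, Lrp1b, Ctnna3 and Gpc5, with 3, 12, 66 and 8 counts. The rest of that list had estimates such as 0.64 for Gpc6, 0.32 for Sntg1, 1.75 for Adgrl3 and -0.98 for Cdh13, with adjusted p of 0.401, 0.563, 0.167 and 0.121. The count of 22 calls fell to 6 without chow null replicate 3 and to 7, 8 and 11 without Western null replicates 1, 2 and 3, and was 11 without chow null replicate 1. Calls over all genes tested fell too, from 13.2% to 5.42% without chow null replicate 3 and to 7.82% without chow null replicate 1. They were 6.66%, 6.24% and 8.16% without Western null replicates 1, 2 and 3. Dlgap1, Wwox, Erc2 and Nrg1 passed under each of the 23 alternatives run, and no called member changed sign under any of them. Camta1, Celf2, Nkain2 and Rora were lost in 10 of the 23, Arhgap26 and Kcnip4 in 9, Nckap5 and Sox5 in 8 and Fhit in 7. Zbtb20 was lost in 6, Diaph2 and Sugct in 5, Immp2l in 4, Dpyd in 3 and Pard3b in 2, and Ptprt in 6 of 22.

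Western siAATF livers were set against Western null livers to ask what the silencing vector does on the Western diet. By edgeR, 1 member fell and 0 rose (1.49% of the members, against 0.871% of all genes tested, or 0.561% for lower genes and 0.31% for higher ones). At an unadjusted p under 0.05 there were 7 higher and 3 lower members (10 of 67, beside 1271 of the 11934 genes tested). With limma-voom 0 members rose and 1 fell (1.49%, against 0.737% of all genes tested). With DESeq2 2 rose and 2 fell (5.97%, against 2.39%). The median log2 fold change was 0.30 over the members and 0.06 over all genes. All 3 Western siAATF libraries lay above all 3 Western null libraries in 8 members (background 7.69%) and below in 3 (background 7.87%).

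The gene called was Nrg1, which passed the low-count filter only through its Western null libraries, the group where it is high. It had 1.99, 1.82 and 1.32 CPM in Western siAATF libraries, against 25.2, 18.4 and 15.7 CPM in Western null libraries. The Western siAATF libraries were all within the range of the chow groups, whose highest library stood at 2.22 CPM. The level was 10.98-fold lower (log2 -3.46 ± 0.48, edgeR adjusted p = 0.00185). Kcnma1 had 3.98, 2.27 and 0 CPM in Western siAATF libraries, below every Western null library, at -2.08 ± 0.64 (adjusted p = 0.183), and Kcnip4 had 1.11, 2.95 and 3.08 CPM, at -1.52 ± 0.51 (0.24). The summed cholangiocyte markers were 36.3, 53.8 and 36.5 CPM in Western siAATF libraries, against 244, 109 and 211 CPM in Western null libraries. They were 52.9, 36.3 and 34.1 CPM in chow siAATF libraries and 43.2, 50.8 and 38.0 CPM in chow null libraries. Of 7 tested cholangiocyte markers 1 fell between the Western groups and 4 rose in Western null against chow null, and none of the 11 was at 0. The sum for lipid-associated macrophages was 908 to 1419 CPM in Western siAATF libraries, against 1587 to 1620 CPM in Western null libraries, with 6 of 12 lower. The part of these cells in the Nrg1 values was not tested.

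The 2 comparisons made so far use the same Western null libraries, so their values are only set side by side. Dpyd had 819, 1385 and 596 CPM in Western siAATF libraries, above all of the Western null libraries, at 0.99 ± 0.32 (edgeR adjusted p = 0.209). Dlgap1 had 11.3, 14.1 and 3.96 CPM in Western siAATF libraries and stood at 2.17 ± 0.51 (0.0622). Immp2l stood at 0.67 ± 0.35 (0.537) and Zbtb20 at 0.57 ± 0.33 (0.596), and in both the highest library was replicate 2. Wwox had 31.8, 44.0 and 25.5 CPM in Western siAATF libraries, which overlapped with Western null, at -0.09 ± 0.32 (0.946). Malat1 stood at 0.79 ± 0.28 (adjusted p = 0.268) in this comparison and Neat1 at 1.08 ± 0.58 (0.57).

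**Figure D4:**
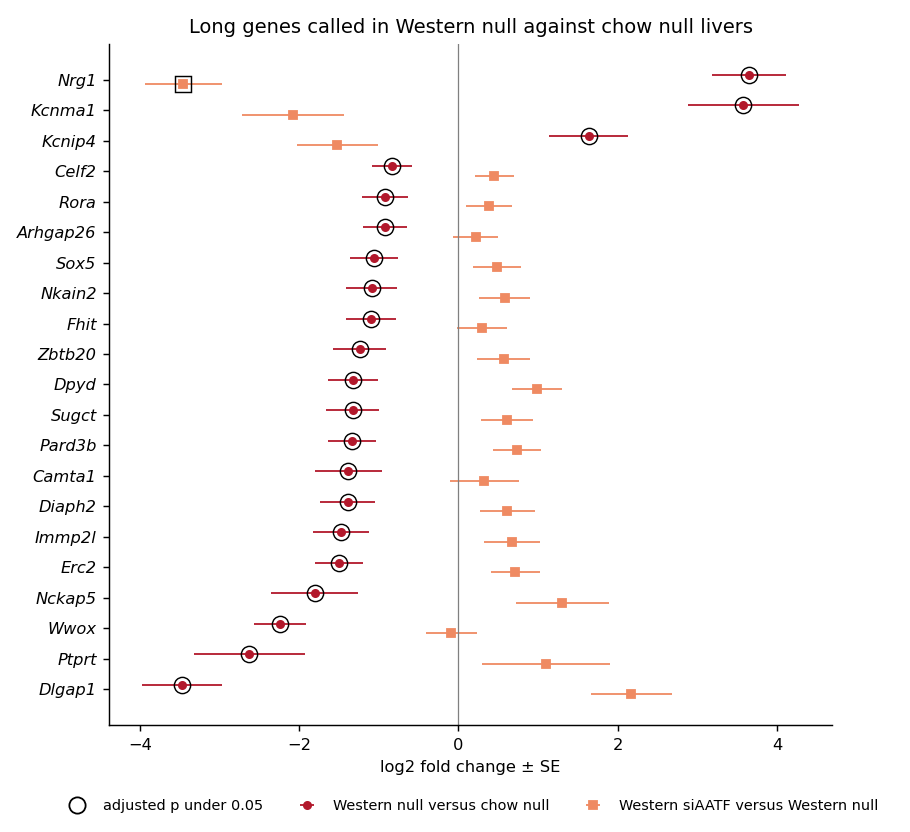
Log2 fold change with SE (horizontal axis) of 21 of the 22 members called in Western null against chow null livers (red circles), and of the same genes in Western siAATF against Western null livers (orange squares); black outlines mark an adjusted p under 0.05. Both comparisons share the Western null libraries; Nrg1 is outlined in both, with 3.65 and -3.46.

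Chow siAATF livers were set against chow null livers to ask what the vector does without the Western diet. By edgeR, 0 of the 67 members were called, and 0% of all genes were. At an unadjusted p under 0.05 there were 1 higher and 9 lower members (10 of 67, beside 285 of the 11934 genes tested). Both limma-voom and DESeq2 called 0 members as well. The members' median log2 fold change was -0.38, against -0.03 over all genes, and 54 of 67 estimates were below 0. The medians by span class were 0.12 under 10 kb, -0.08 at 30 to 100 kb, -0.20 at 100 to 300 kb and -0.29 at 300 to 700 kb. Hs6st3, a heparan sulfate sulfotransferase, had the smallest unadjusted p. It had 0.79, 0.98 and 0.21 CPM in chow siAATF libraries, against 2.63, 1.69 and 3.74 CPM in chow null libraries, without overlap, at -1.95 ± 0.58 (adjusted p = 1). Nkain2, which binds the sodium pump, had 9.26, 8.25 and 9.41 CPM in chow siAATF libraries, against 14.4, 20.3 and 16.2 CPM in chow null libraries, also without overlap, at -0.90 ± 0.30 (adjusted p = 1). Magi2 stood at -1.17 ± 0.50, Il1rapl1 at 2.96 ± 1.20 and Npas3 at -1.45 ± 0.65, all with an adjusted p of 1. In 7 members all chow siAATF libraries lay below all chow null libraries (background 4.32%), and in 1, Rbfox1, above (background 4.25%).

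Western siAATF livers were also set against chow siAATF livers, the same diets with the silencing vector in both groups. Of the members 1 rose and 1 fell (2.99%, against 1.48% of all genes tested, with 0.763% higher and 0.721% lower), and the medians were 0.07 for the members and 0.04 for all genes. Western siAATF libraries lay wholly above chow siAATF in 4 members (background 9.24%) and wholly below in 5 (background 8.36%). Wwox fell, with 31.8, 44.0 and 25.5 CPM in Western siAATF libraries, against 124, 107 and 89.7 CPM in chow siAATF libraries (log2 -1.65 ± 0.32, edgeR adjusted p = 0.0167). The groups did not overlap, and with the null-vector groups given above Wwox was lower on the Western diet under both vectors. The call was lost without Western siAATF replicate 1 or without chow siAATF replicates 1 or 2, with an adjusted p of up to 0.073.

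Igk, the immunoglobulin kappa light chain locus (chromosome 6, 67532620 to 70703738, plus strand, the longest member), rose. It had 200, 149 and 109 CPM in Western siAATF libraries, against 46.0, 13.8 and 44.7 CPM in chow siAATF libraries (log2 2.15 ± 0.45, edgeR adjusted p = 0.0322). Every Western siAATF library was also above every Western null library, where Igk had 38.5, 54.2 and 32.1 CPM, at 1.89 ± 0.45 (adjusted p = 0.0778). Igk holds 198 listed genes that overlap 4.37% of it, and all 198 are at 0 in every library. Reads over these genes are thus listed under none of them, and the Igk count may leave them out too. The Igk value is therefore a count over the locus and not a measure of light chain mRNA. Igh, the heavy chain locus, had 8.18, 5.67 and 5.28 CPM in Western siAATF libraries, against 3.44, 1.78 and 4.39 CPM in chow siAATF libraries (1.07 ± 0.47, adjusted p = 0.283). Of 14 lymphocyte markers 1 could be tested and was not called, Ighm, Ms4a1 and Trbc2 were at 0, and the sum was 11 to 72.9 CPM in Western siAATF libraries, against 13.7 to 19.8 CPM in chow siAATF libraries. Genes inside another listed gene are at 0 throughout, so a marker at 0 does not by itself show absent RNA. The part of lymphocytes or plasma cells in the Igk values was not tested. The Igk call was lost in 10 of 23 alternatives, among them leaving out Western siAATF replicate 1 or 2, any 1 chow siAATF library or Western null replicate 1, with an adjusted p of up to 0.163.

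The difference between the vector's effect on the Western diet and on chow was tested as an interaction. Nrg1 alone passed (1.49% of the members, against 0.193% of all genes tested, with 0.101% positive and 0.0922% negative), at -3.66 ± 0.69 on the log2 scale (edgeR adjusted p = 0.0396). The low-count filter kept Nrg1 only with its Western null libraries counted, and the interaction uses the same libraries. Its level was 1.59, 2.22 and 1.25 CPM in chow siAATF libraries, against 1.71, 0 and 1.92 CPM in chow null libraries, at 0.21 ± 0.49 (adjusted p = 1). No member had a positive interaction past the threshold, while 14 had one at an unadjusted p under 0.05 by edgeR, and limma-voom and DESeq2 called 0 of that sign. With either sign, 15 of 67 members were under that unadjusted p, beside 1093 of the 11934 genes tested. The next smallest p-values belonged to Nkain2 at 1.48 ± 0.44 (adjusted p = 0.271), Dlgap1 at 2.09 ± 0.65 (0.301), Nckap5 at 2.18 ± 0.75 (0.357) and Dpyd at 1.28 ± 0.44 (0.367). The median interaction was 0.61 over the members, 0.53 over genes of 300 to 700 kb and -0.17 over genes under 10 kb, and it uses all 4 groups. The Nrg1 interaction was lost in 13 of 22 alternatives, among them leaving out any 1 library other than Western siAATF replicate 3 or chow null replicate 2, with an adjusted p of up to 0.195.

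Close to the limit of 700 kb, the members included Fgf14 and Mgat4c, with 13 and 3 counts, and neither could be tested. The genes just below it were Arhgap24 with -1.08 ± 0.36 in Western null against chow null livers (edgeR adjusted p = 0.0542), Grik2 with 3 counts, and Egfem1 with -2.54 ± 0.67 (adjusted p = 0.0193). With a limit of 500 kb, 6 of 137 tested genes were higher and 39 lower in that comparison, and with 1 Mb 2 of 35 were higher and 5 lower.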

How the data were processed

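The deposited table holds whole-number counts of reads per gene for 12 liver libraries. The authors aligned reads with STAR 2.7.11 and counted them with featureCounts 2.0.1 on GRCm39, in R 4.3.2 with DESeq2 1.42.0, per the submitters' processing notes. Per the labels' protocols, an AllPrep kit gave the RNA and a SMART-Seq kit the libraries. The strand setting is not given in the sources used here. In the table each length is the whole span. All 4630 genes inside another on the same strand are listed at 0, and so are all 5778 inside one on the other strand. The counts therefore do not tell a gene from an antisense partner inside it. Replicates differed beyond sampling noise (lowest chi-square over its degrees of freedom 10.98), and replicate numbers did not pair across groups (correlations of -0.15 to 0.26).

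From these counts, CPM with TMM library sizes and edgeR 4.0.16 quasi-likelihood tests (R 4.3.3, filterByExpr, 8 residual degrees of freedom, Benjamini-Hochberg over 11934 genes, threshold 0.05) were computed in 1 fit of 4 group means. Log2 fold changes carry their SE. On counts simulated for Western null against chow null (11462 genes in the fit), the test called 26 of 42 genes lowered by 2 on the log2 scale, 45 of 50 raised by 2, 7 of 49 lowered by 1, 10 of 50 raised by 1 and 9 of 11271 left as they were. The simulation changed few genes, picked at random, and held no trend with span, so it gives no error rate for the long genes. limma 3.58.1 voom and DESeq2 1.42.0 were alternatives. Named genes are all called members, the 12 most expressed, the 31 with a listed role in liver or metabolism, the 5 smallest p-values where none passed and for the interaction, the 5 longest, the 5 densest, and 3 on each side of the limit. The members and lists were chosen with earlier results of these data known. Some genes of that length are not reported by name here.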

Additional observations from a re-analysis of the deposited data

Results flagged for a closer look

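Nrg1 differed between the diets in its response to the vector, by the test of the interaction itself. It was open to that test only because the low-count filter counted its Western null libraries, where it is high. The log2 interaction was -3.66 ± 0.69 (edgeR adjusted p = 0.0396). Every Western siAATF library was below every Western null library (1.32 to 1.99 CPM in Western siAATF, against 15.7 to 25.2 CPM in Western null), while chow siAATF (1.25 to 2.22 CPM) and chow null (0 to 1.92 CPM) overlapped. The interaction passed in 9 of 22 alternatives, with an adjusted p from 0.000135 to 0.195. No member had all 3 Western siAATF libraries on one side of Western null and all 3 chow siAATF libraries on the other side of chow null.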

How the results depend on the processing

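For Western null against chow null, where 22 members were called, the count was 12 with scaling on genes of 100 to under 700 kb, 14 with a replicate block, 11 with the span offset (7 of them shared with the 22), 45 at a limit of 500 kb and 7 at 1 Mb. It was 22 with DESeq2's size factors, without the 18S gene and with limma-voom, 23 with DESeq2 and 26 with the compared groups fitted alone, and leaving out 1 library gave 6 to 26. For Western siAATF against Western null (1 call) it was 2 with scaling on longer genes, with the span offset, with the compared groups alone and at 500 kb, 6 with no low-count filter, 4 with DESeq2, and 1 to 5 when 1 library was left out, with 5 without Western siAATF replicate 3. For chow siAATF against chow null (0 calls) it was 1 with no filter. For Western siAATF against chow siAATF (2 calls) it was 7 with no filter, 1 with the replicate block, the span offset, without the libraries with over 25% 18S, at 1 Mb, and, as chosen after seeing the data, without the antigen receptor loci, 0 with the compared groups alone, and 0 to 8 when 1 library was left out, with 8 without Western siAATF replicate 3. For the interaction (1 call) it was 4 with no filter, 0 with the replicate block, without the libraries with over 25% 18S and with limma-voom, and 0 to 3 when 1 library was left out. Leaving out the libraries with over 25% 18S leaves chow null replicate 3 alone in its group. Calls over all genes tested moved as well. For Western null against chow null they were 13.2% in the main fit and 9.69% with the replicate block. They were 17% with the compared groups alone and 5.42% without chow null replicate 3. Without Western siAATF replicate 3 they were 3.34% for Western siAATF against Western null, from 0.871%. For Western siAATF against chow siAATF they were 5.95% in that setting, from 1.48%. The cause of these changes in count was not tested.

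Replicate numbers are not known to pair libraries, so the replicate block is a check only. Of 26 called gene results 5 passed in every alternative and 0 reversed. The log2 difference of the members' share of counts for Western null against chow null was -0.38 at 1 Mb, against -0.84, and for Western siAATF against Western null it was 0.0156 with all counts in the denominator, against 0.35. Depth limits the 62 members that were not tested, since a floor of 3 counts is 0.185 to 1.69 CPM.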

Other observations

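Among the members too thinly counted to test, Sgcz, which encodes a sarcoglycan, had 95 of its 110 counts (86.4%) in Western siAATF replicate 3. Tenm4, a teneurin, had 2.47, 1.36 and 3.23 CPM in Western null libraries, against 0.23, 1.69 and 0.17 CPM in chow null libraries, and the groups overlapped. Cntnap2 and Lrp1b, which span 2241.3 and 2058.4 kb, had 9 and 12 counts in all 12 libraries. The members' group SD was a median of 43.4% of the mean in Western siAATF libraries and 26.5% in Western null libraries, and 32.0% in chow siAATF and 37.2% in chow null libraries.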
